A study of Mus musculus with 34 samples.

Results

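The genes described here encode 9 surface molecules, most of them ligands, through which a dendritic cell instructs T cells: Cd40, Cd80, Cd86, Cd274, Pdcd1lg2, Cd83, Icosl, Tnfsf9 and Icam1. They were given as a list of names, not picked by a measured value, but were chosen with earlier results of these data known. All 9 were found among the 21938 protein-coding genes of the mouse annotation (GENCODE vM21, build mm10). A dendritic cell that senses a microbe brings costimulatory ligands to its surface. CD80 and CD86 engage CD28 and CTLA-4 on the T cell, ICOSL engages ICOS and 4-1BBL, the product of Tnfsf9, engages 4-1BB, while CD40 receives CD40L from the T cell and ICAM-1 holds the contact through LFA-1. CD83 marks mature dendritic cells and stabilises MHC class II and CD86 at the surface. The checkpoint ligands PD-L1 (Cd274) and PD-L2 (Pdcd1lg2) bind PD-1 and restrain the T cell, and many of these genes are textbook targets of NF-κB, whose subunit p65 (RelA) enters the nucleus after lipopolysaccharide (LPS) engages TLR4.

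The data were 30 lists of ChIP-seq peaks from bone marrow-derived dendritic cells (BMDCs) of C57BL/6 background mice, 8 weeks of age per the labels, grown for 6 days in GM-CSF. All cells carried a tamoxifen-inducible Cre (CreER, expressed in all cells), either alone (WT) or with loxP-flanked Ctcf alleles (KO), and 4-hydroxytamoxifen was given to both genotypes on day 1 of culture. Cells were left untreated (WT, KO) or received 100 ng/ml LPS for 3 h (WTLPS, KOLPS). Of the antibodies, those to p65, CTCF, SMC1 (a subunit of cohesin), H3K4me3, H3K27ac, H3K4me1 and H3K27me3 had lists for the 4 conditions, and STAT5 lists covered WT and KO after GM-CSF was given again for 15 min. Each antibody and condition had 1 list, so no difference below has a replicate error and none was tested. A weaker peak in these bulk cultures can stand for fewer cells with the mark or for less of it per cell, and these cannot be told apart.

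Peaks were counted at the promoter, no further than 2.5 kb from where a gene's longest transcript starts, and within 100 kb of that start. The start sites were chr2:165055627 (Cd40), chr16:38455561 (Cd80), chr16:36666077 (Cd86, on the minus strand as the only such gene of the 9), chr19:29367455 (Cd274), chr19:29422059 (Pdcd1lg2), chr13:43784775 (Cd83), chr10:78069302 (Icosl), chr17:57105325 (Tnfsf9) and chr9:21015985 (Icam1). Cd274 and Pdcd1lg2 lie 54.6 kb apart and share most of their windows, so that sums over the 9 genes used 8 merged windows and counted each peak once. Cd83 had no other protein-coding start within 100 kb, Cd86 had 1, Cd80 had 5, and Tnfsf9 and Icam1 had 10 each. A distant peak near Cd80, Tnfsf9 or Icam1 therefore cannot be assigned to that gene alone.

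H3K4me3, a mark of active promoters, was present in all 4 conditions at the promoters of 10 of 10 dendritic and myeloid marker genes, Itgax, Zbtb46 and Flt3 among them, and at 4 of 4 macrophage markers. Of the markers of other lineages it covered 1 of 6 T cell genes (Lck), the B cell genes Pax5 and Ebf1, 1 of 5 neutrophil genes (S100a8) and 1 of 4 mast cell and basophil genes (Gata2), while Cd3e, Cd79a, Cd79b, Ms4a1, Elane, Ly6g, Cpa3 and Mcpt8 had none. CTCF peaks numbered 60537 before and 54020 after LPS in WT cells, and 20151 and 11576 in KO cells. p65 peaks numbered 781, 5465, 504 and 1752 in the same order.

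The sequences under the p65 summits of these genes are shown because the LPS comparison turns on these sites. The NF-κB decamer, the consensus half-site pair recognised by p65 and its partners, was searched on both strands within 50 bp of each summit and is printed in capitals. It was found at 9 of the 36 p65 sites listed in WTLPS within 100 kb of the 9 genes. Over the whole WTLPS list 13.4% of 5465 peaks held it, against 1.56% of equally long windows 1 kb further along the chromosome. Sequences are on the plus strand of mm10, read from GRCm38.p6. The sites at the promoters of Cd40, Cd80 and Icam1 that held the decamer read
Cd40, 387 bp before the start, chr2:165055190-165055290: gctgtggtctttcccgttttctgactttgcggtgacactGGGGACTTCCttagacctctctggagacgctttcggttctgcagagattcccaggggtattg
Cd80, 1894 bp after the start, in an intron, chr16:38457405-38457505: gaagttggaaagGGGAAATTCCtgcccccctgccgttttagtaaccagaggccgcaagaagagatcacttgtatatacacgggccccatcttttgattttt
Icam1, 745 bp after the start, in an intron, chr9:21016680-21016780: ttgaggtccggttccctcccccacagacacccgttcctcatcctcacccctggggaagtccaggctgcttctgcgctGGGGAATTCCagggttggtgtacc

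A further p65 promoter site, 540 bp before the start of Icam1, held no decamer in this window, which says nothing more than that these letters are absent there. It is printed because it was among the few sites listed in both LPS conditions, and so is the site 65.9 kb after Icosl, the strongest of the group, which held none either. Each window is that of the WTLPS summit. The KOLPS summit of the Icam1 site, 320 bp before the start, lies outside the printed window.
Icam1, 540 bp before the start, chr9:21015395-21015495: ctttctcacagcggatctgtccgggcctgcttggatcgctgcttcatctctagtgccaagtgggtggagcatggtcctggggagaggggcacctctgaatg
Icosl, 65.9 kb after the start, chr10:78135180-78135280: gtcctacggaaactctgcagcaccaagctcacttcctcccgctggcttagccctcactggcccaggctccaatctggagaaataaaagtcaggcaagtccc

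Away from the promoters, the strongest p65 site of the PD-1 ligand genes lay in an intron of Pdcd1lg2 and held a decamer. The decamers 9.3 kb before Cd83 and 68.0 kb after Icosl are shown as other strong p65 sites with this motif, the Icosl site being the strongest with it in WTLPS, chosen after their values were seen, and the latter holds a pair of them.
Pdcd1lg2, 9.1 kb after the start, chr19:29431100-29431200: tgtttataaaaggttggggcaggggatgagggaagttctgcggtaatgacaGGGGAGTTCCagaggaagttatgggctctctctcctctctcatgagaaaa
Cd83, 9.3 kb before the start, chr13:43775387-43775487: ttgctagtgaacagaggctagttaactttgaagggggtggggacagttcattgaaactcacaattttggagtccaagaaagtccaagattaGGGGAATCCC
Icosl, 68.0 kb after the start, chr10:78137243-78137343: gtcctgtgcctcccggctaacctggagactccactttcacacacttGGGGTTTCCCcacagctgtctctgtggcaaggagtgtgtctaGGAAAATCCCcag

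STAT5, which GM-CSF activates through JAK2, binds as a dimer to a motif of TTC and GAA set 3 bases apart. This motif, searched on both strands, was found within 50 bp of 21 of the 45 STAT5 sites near the 9 genes in WT. In a sample of 1637 peaks drawn at even steps from the whole WT list, 36.8% held it, against 3.3% of windows 1 kb away. It is shown in capitals at the STAT5 summits of 3 promoters, again chosen after the values were seen. The Cd40 window overlaps the p65 window above, and its STAT motif lies upstream of the decamer.
Cd40, 436 bp before the start, chr2:165055141-165055241: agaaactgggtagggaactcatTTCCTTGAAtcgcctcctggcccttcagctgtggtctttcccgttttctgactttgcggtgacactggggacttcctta
Icam1, 39 bp before the start, chr9:21015896-21015984: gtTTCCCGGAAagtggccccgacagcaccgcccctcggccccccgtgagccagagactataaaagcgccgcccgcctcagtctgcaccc
Pdcd1lg2, 1901 bp before the start, chr19:29420108-29420208: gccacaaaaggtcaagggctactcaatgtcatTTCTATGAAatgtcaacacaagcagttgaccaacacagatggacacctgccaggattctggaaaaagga

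The promoters of the 9 genes were marked as active in all conditions. H3K27ac was present at 9 of 9 promoters in each of the 4 lists, where 44.1%, 41.3%, 44.5% and 40.8% of all protein-coding genes had a peak in WT, WTLPS, KO and KOLPS. H3K4me3 covered 8 of 9 in each, against 56.7%, 57%, 57.2% and 56.2% of all genes. The exception was Pdcd1lg2, whose longest transcript starts inside the gene. Its other annotated start, at chr19:29410919, had H3K4me3 in all 4 conditions, at 8.52-fold over background in WT. H3K4me1, found at enhancers and beside active promoters, lay at 9 of 9 promoters in WT, WTLPS and KO and at 8 of 9 in KOLPS, without Cd40 there. Its background was 57.1%, 57.3%, 56.8% and 46.5%.

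**Figure D1:**
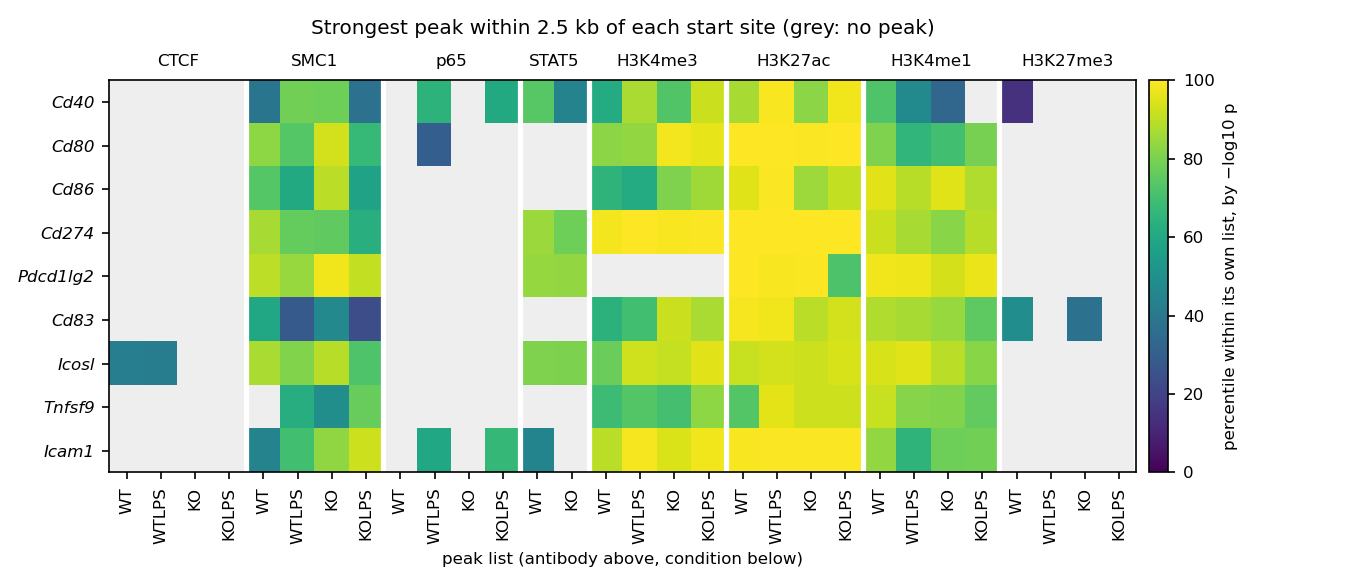
Strongest peak within 2.5 kb of the start of each of the 9 genes (vertical axis) in each of the 30 peak lists (horizontal axis, grouped by antibody), coloured by its percentile within its own list by −log10 p, with grey where no peak was listed. H3K27ac fills every cell of its block, p65 appears only in the WTLPS and KOLPS columns, at Cd40 and Icam1 in both and at Cd80 in WTLPS, and CTCF appears only at Icosl in WT and WTLPS.

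LPS was followed by more acetylation at some of these promoters. Fold over background depends on the depth of its own library, so values are set beside the percentile each peak held in its own list. At Cd40 the highest H3K27ac peak was 7.82-fold before and 19.57-fold after LPS in WT cells, and 8.01-fold and 13.88-fold in KO cells, at percentiles 87.1, 99.1, 82.7 and 97.9. Both LPS lists thus held it higher than their untreated counterparts. Tnfsf9 had 5.98-fold and 12.29-fold in WT cells, and 10.87-fold and 9.44-fold in KO cells, at percentiles 73.4, 96.0, 92.2 and 92.3, so that its rank was higher after LPS in WT cells and nearly the same in KO cells, where the fold was lower. The promoter of Cd274 carried the strongest acetylation of the group, at or above percentile 99.8 of every list, with 25.31-fold and 42.77-fold in WT cells and 26.88-fold and 26.1-fold in KO cells. The highest peaks reaching the windows of Cd80 and Icam1 likewise held percentile 99.2 or above in the 4 lists. For Cd80 the summit lay 2103, 2958 and 2198 bp after the start in WT, WTLPS and KO. In KOLPS it lay 2421 bp before the start, nearer to the start of Adprh, so the Cd80 percentiles belong to different summits. At Pdcd1lg2 the highest peak reaching the promoter window held percentile 99.8 in WT, 99.2 in WTLPS and 99.3 in KO but 71.9 in KOLPS. Its summit lay outside the window in WT, WTLPS and KO, 2657, 3504 and 4379 bp before the start. In KOLPS it lay 1559 bp before the start, so the percentiles belong to different summits. Cd86 had 11.04-fold in WT and 8.58-fold in KO, then 21.39-fold in WTLPS and 8.89-fold in KOLPS. Each KO list ranked its highest peak lower than the WT list under the same treatment. The WTLPS value belonged to a peak with its summit 3114 bp before the start, outside the window. In WT, KO and KOLPS the summit lay 624, 199 and 886 bp after the start, so the WTLPS value is not from the same position.

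Cd274 also had the strongest H3K4me3 of the group in each of the 4 lists. At Cd40 it was 18.37-fold, 34.35-fold, 23.62-fold and 25.86-fold in WT, WTLPS, KO and KOLPS, at percentiles 61.7, 87.4, 72.7 and 91.8. For Cd274 it stood at 43.47-fold, 53.85-fold, 44.07-fold and 35.27-fold, never under percentile 98.1. The fold of Icam1 was 35.41, 44.56, 35.44 and 30.56 in the same order.

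H3K27me3, the Polycomb mark of silenced genes, lay at the Cd40 promoter in WT only, at 2.85-fold, and at the Cd83 promoter in WT (3.09-fold) and KO (3.01-fold). No promoter of the 9 had it in WTLPS or KOLPS. The mark reached the promoters of 27.1% of all protein-coding genes in WT and 27.6% in KO, and of 20.8% and 11.8% after LPS. The Cd40 peak was weak for its list, at percentile 14.3, and those of Cd83 were at 49.0 and 37.8. At a stricter threshold, a −log10 p of 4, none of them remained.

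The p65 lists placed a peak at 3 of the 9 promoters in WTLPS, those of Cd40, Cd80 and Icam1, and at none in WT or KO. In KOLPS the count was 2, Cd40 and Icam1. Promoter p65 was rare, with 0.474% of all protein-coding genes before and 2.86% after LPS in WT cells, and 0.342% and 1.86% in KO cells. The 3 genes had a WTLPS peak without a WT peak, as 2.42% of all genes did, and Cd80 had a WTLPS peak without a KOLPS peak, as 1.97% did.

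The deposited fold and −log10 p were turned back into the number of fragments under the summit, since the caller computes both from that number and a local background. At Cd40 the WTLPS summit (chr2:165054959-165055555) held 15 fragments and the KOLPS summit 15, with 8.62-fold and 8.81-fold enrichment. Their ratio, KOLPS over WTLPS and each divided by the usual (most frequent) local background of its list, was 1.05, with an exact 95% interval of 0.48 to 2.3. Scaled by the mapped reads stated for the libraries instead of the background, it was 0.89 (0.41 to 1.95). These measures of depth disagree for p65, since by mapped reads KOLPS was the deeper library and by background the shallower. The interval covers counting error only, and a summit is the highest point of its peak, so both counts lean upward. At Icam1 the upstream site (chr9:21015237-21016017) had 14 fragments in WTLPS and 16 in KOLPS, a ratio of 1.2 (0.55 to 2.65), or 1.02 (0.47 to 2.25) by mapped reads. Its summit lay 540 bp before the start in WTLPS and 320 bp before it in KOLPS, so the counts are from different positions. Neither of these promoter sites was distinguishable between the genotypes at this depth on either scale. KOLPS alone also listed a peak 1262 bp before Icam1 (chr9:21014651-21014902) with 14 fragments. The intronic Icam1 site (chr9:21016591-21016861) was listed in WTLPS alone, with 13 fragments.

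The Cd80 site (chr16:38457348-38457555) lay 1894 bp after the start of the longest transcript, while the next annotated start of this gene follows at 3372 bp. It had 10 fragments in WTLPS, 5.93-fold, at percentile 29.7 of its list. A peak over the KOLPS background needed 7 fragments. Had KOLPS held 6 there, the ratio would have been 0.63 with an interval of 0.19 to 1.91, or 0.53 (0.16 to 1.62) by mapped reads, so the absence of a Cd80 peak from KOLPS does not separate the genotypes.

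Within 100 kb, all 9 genes had at least 1 p65 peak in WTLPS, against 33.1% of all protein-coding genes, and 7 of 9 had one in KOLPS, against 17.9%. In the merged windows the p65 peaks numbered 6 before and 36 after LPS in WT cells, and 4 and 11 in KO cells. Cd80 had the most, with 0, 9, 0 and 1 in WT, WTLPS, KO and KOLPS. Of its 9 WTLPS sites, that 1.9 kb after the start had Cd80 as its nearest protein-coding start. The others lay nearer to Popdc2, Pla1a, Adprh or Poglut1. A count of 9 is at or above that of 99.8% of the 12431 genes with H3K4me3 at the promoter in WT, whose median was 0. For Pdcd1lg2 the counts were 3, 8, 2 and 2, and for Cd274, which shares most of them, 3, 5, 1 and 1. Cd40 had 0, 3, 0 and 1, Cd83 had 0, 4, 0 and 2, and Icam1 had 0, 4, 0 and 2. Cd86 (0, 3, 0 and 0) and Tnfsf9 (0, 1, 0 and 0) had p65 peaks in WTLPS alone. Icosl had 3, 4, 2 and 3. Only Cd274, Pdcd1lg2 and Icosl thus had p65 nearby before LPS, and they had it in both genotypes.

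**Figure D2:**
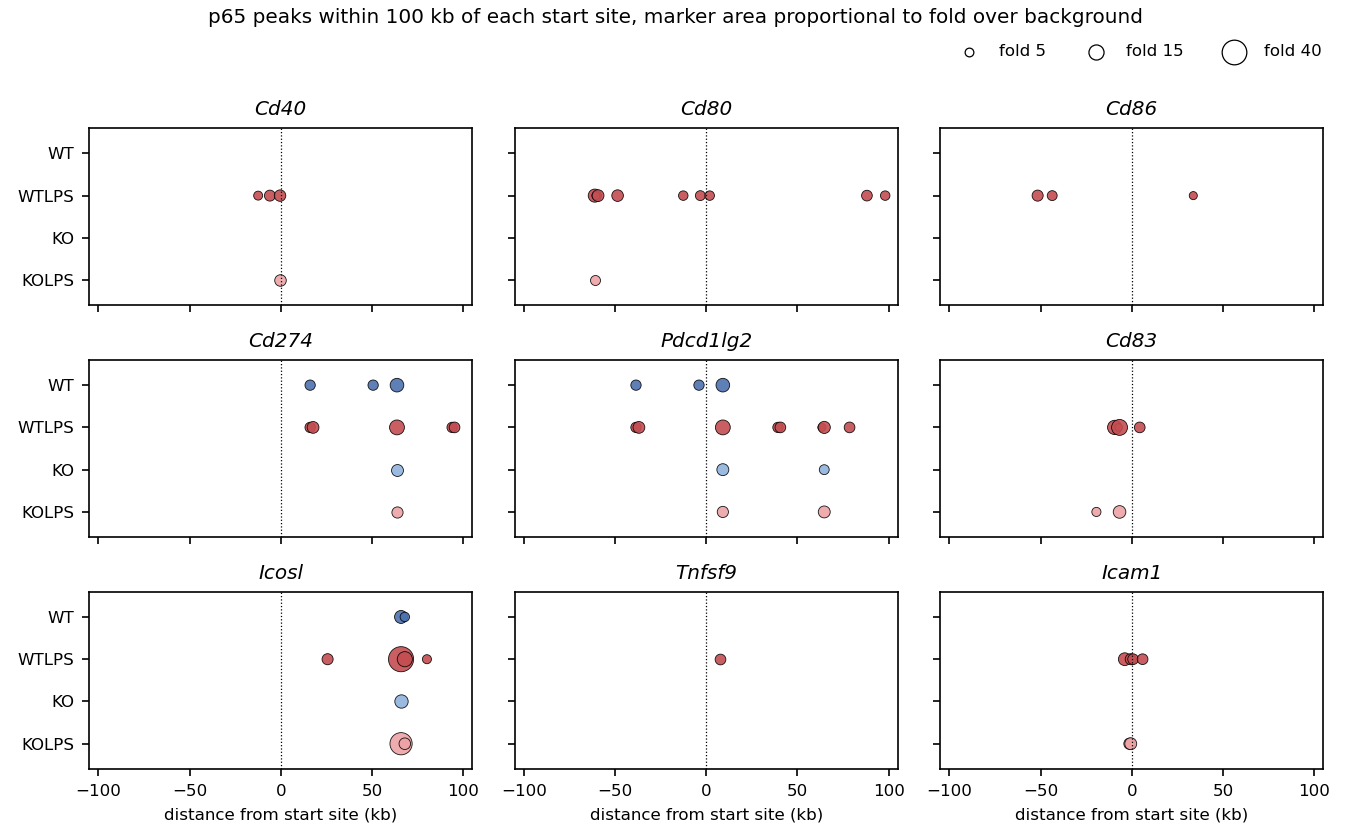
p65 sites around each start, with distance from the start in kb along the gene's own direction (horizontal axis), the 4 conditions as rows and marker area in proportion to fold over background; peaks of 1 list that merge into 1 site appear as their strongest. The WTLPS row holds the most markers for each gene, 1 for Tnfsf9 to 9 for Cd80, and Cd86 and Tnfsf9 have none in KOLPS.

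The strongest p65 peak of the group lay 65.9 kb after the start of Icosl (chr10:78134466-78136286), outside protein-coding genes. Its fold was 11.09 before and 41.5 after LPS in WT cells (18 and 76 fragments) and 11.73 and 32.47 in KO cells (19 and 58 fragments). The ratio of WTLPS to WT was 3.52 (2.09 to 6.26), beyond counting error, whereas that of KOLPS to WTLPS was 0.8 (0.56 to 1.14). By mapped reads these were 4.84 (2.87 to 8.59) and 0.68 (0.47 to 0.97), so whether KOLPS was lower beyond counting error depended on the measure of depth. The nearest protein-coding start to this site was D10Jhu81e, 32.2 kb away, not Icosl. A second site 68.0 kb after Icosl (chr10:78137035-78137489), which carries the 2 decamers printed above, had 9 fragments in WT, 27 in WTLPS and 15 in KOLPS and no peak in KO.

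At Cd83 the strongest site lay 6.7 kb before the start (chr13:43777987-43778648), with 30 fragments in WTLPS and 18 in KOLPS, a ratio of 0.63 (0.33 to 1.16), or 0.53 (0.28 to 0.99) by mapped reads. A site 9.3 kb before the start (chr13:43775248-43775603) had 24 fragments in WTLPS and no KOLPS peak. Even with 6 fragments in KOLPS, 1 short of a call, its ratio would be 0.26 (0.09 to 0.66). Its H3K27ac was listed in WT and WTLPS and in neither KO list, while SMC1 and H3K4me1 were present there in all 4 conditions. A weak peak 19.4 kb before Cd83 was listed in KOLPS alone, with 9 fragments.

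In Pdcd1lg2, the intronic site 9.1 kb after the start (chr19:29430923-29431402), 63.7 kb after Cd274, was listed in all 4 conditions, with 20 fragments before and 26 after LPS in WT cells and 15 and 14 in KO cells. LPS over WT gave 1.08 (0.58 to 2.05) and KOLPS over WTLPS 0.56 (0.27 to 1.12), neither beyond counting error. By mapped reads the first was 1.49 (0.8 to 2.81) and the second 0.48 (0.23 to 0.95), the latter beyond it. An intronic site of Cd274, 16.1 kb after its start, was likewise bound before LPS, with 11 fragments in WT and 12 in WTLPS, and had no peak in either KO list. With 6 fragments in KOLPS its ratio to WTLPS would be 0.52 (0.16 to 1.51), or 0.44 (0.14 to 1.28) by mapped reads. Its absence from KOLPS thus does not separate the genotypes. A peak 4.0 kb before Pdcd1lg2 was listed in WT alone, with 11 fragments. The site 64.7 kb after Pdcd1lg2 was listed in WTLPS (17 fragments), KO (10) and KOLPS (16).

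The strongest sites of the remaining genes were weaker. For Cd80 it lay 61.1 kb before the start (chr16:38394233-38394739), with 20 fragments in WTLPS and 11 in KOLPS. The nearest protein-coding start to that site was Popdc2, 32.3 kb away. For Icam1 it lay 3.8 kb before the start (chr9:21012015-21012323), with 19 fragments in WTLPS and no KOLPS peak, and for this site the ratio stayed under 0.86 even with 6 fragments in KOLPS. For Cd86 it lay 51.6 kb before the start, in an intron of Ildr1 (chr16:36717501-36717800), with 14 fragments. For Tnfsf9 it lay 7.8 kb after the start (chr17:57113000-57113366), with 13 fragments. These last 2 had no peak in KOLPS.

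**Figure D3:**
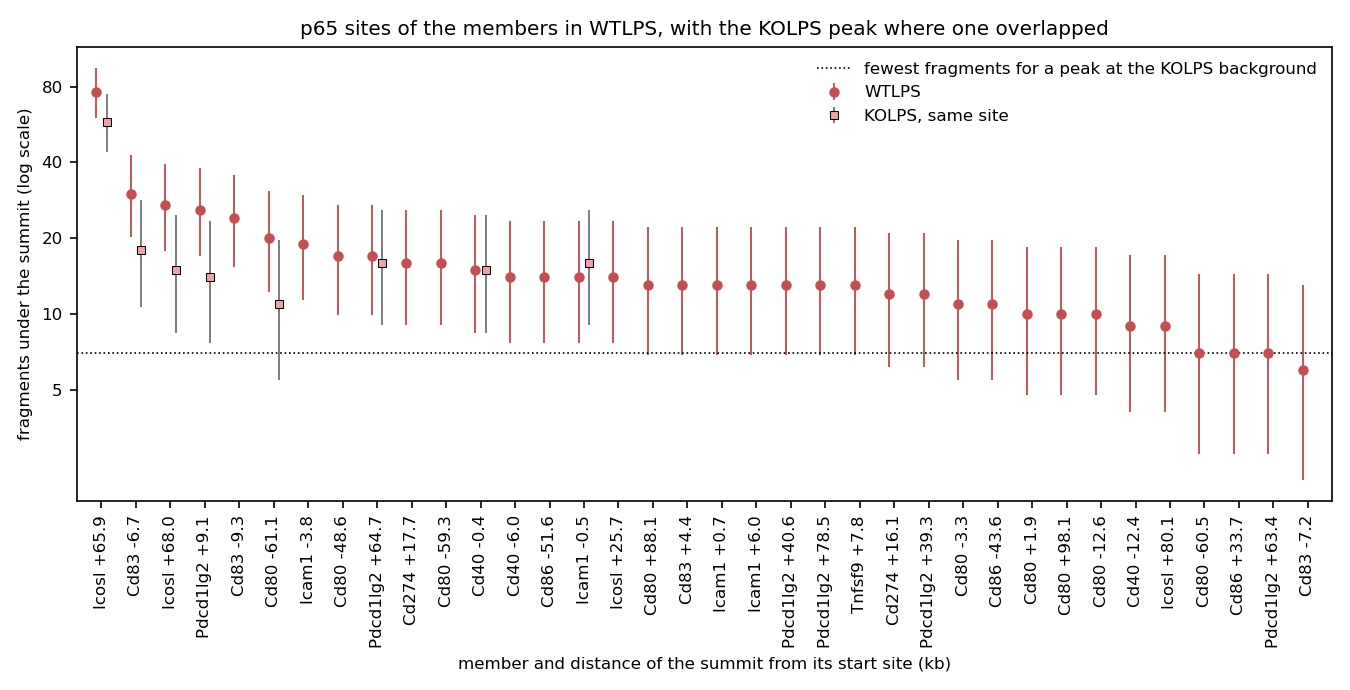
Fragments under the p65 summit (vertical axis, log scale) at the 36 WTLPS sites near the 9 genes, ordered by their WTLPS count, with exact 95% counting intervals; squares give the overlapping KOLPS peak where there is one, and the dotted line marks the 7 fragments a peak needed over the KOLPS background. Squares stand at 8 sites, at each of which the interval of the KOLPS to WTLPS ratio over background held 1, and most sites without a square held 13 fragments or fewer in WTLPS.

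Of the 36 WTLPS sites, 4 had a p65 peak in WT (11.1%), 3 in KO (8.33%) and 8 in KOLPS (22.2%). Over all 5465 WTLPS peaks the shares were 13.3%, 7.61% and 22.7%, so that the loss of listed p65 peaks near these genes was of the size seen over the whole list. At the 8 sites in both lists the KOLPS fold was a median 0.7 times the WTLPS fold, beside 0.71 times over 1242 such peaks. All 8 intervals of the ratio over background held 1, while by mapped reads 4 lay below 1, those 9.1 kb after Pdcd1lg2, 6.7 kb before Cd83 and 65.9 and 68.0 kb after Icosl. Among the 28 sites without a KOLPS peak, 3 would have a ratio wholly under 1 with the most fragments that KOLPS could hold uncalled: those 9.3 kb before Cd83, 3.8 kb before Icam1 and 48.6 kb before Cd80, the latter with 17 fragments in WTLPS and an upper bound of 0.98. By mapped reads these were 5, with the sites 59.3 kb before Cd80 and 17.7 kb after Cd274 added. For the remaining sites counting error alone spans an equal level in both lists. With each WTLPS site thinned to the KOLPS background and held to the KOLPS threshold, 34.2 of the 36 peaks were expected, where 8 sites had a KOLPS peak. The KOLPS background was 0.956 times that of WTLPS, so the thinning kept nearly every site by construction. It modelled no counting error of a separate KOLPS library, and the lower count was not tested. By mapped reads KOLPS was not the shallower library. A lower yield of the KOLPS immunoprecipitation would thin the peaks in another way and was not tested.

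The 36 sites lay in chromatin that other lists also marked. SMC1 overlapped 34 of them before and 35 after LPS in WT cells, and 32 and 32 in KO cells, beside 72.4%, 88%, 66.8% and 65.2% of the whole WTLPS p65 list. H3K27ac overlapped 33, 36, 30 and 30, and the shares over the whole list were 64.6%, 75.4%, 66.2% and 66.3%. STAT5 overlapped 13 in WT and 13 in KO, or 36.1% in each, beside 27% and 21.4% of the whole list. CTCF overlapped 1 in WT and 1 in WTLPS and none in KO or KOLPS, beside 7.76% of the whole list in WT. None carried H3K27me3 in any list, but the share with this mark was not counted over the whole p65 list. Of the 3 p65 sites of Cd40, those 12.4 kb and 6.0 kb before the start had H3K27ac in WTLPS and KOLPS and in neither untreated list. The acetylation of these 2 Cd40 sites after LPS was listed in both genotypes, and p65 in WTLPS alone. They had 9 and 14 p65 fragments in WTLPS. Had KOLPS held 6 at each, the ratios would have been 0.7 (0.2 to 2.19) and 0.45 (0.14 to 1.24). The absence of these p65 peaks from KOLPS thus does not separate the genotypes.

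Acetylation was also measured across the whole windows. H3K27ac peaks break up differently in the 4 lists, so the covered length is given. Around Cd40 it was 3.38 kb before and 15.84 kb after LPS in WT cells, and 2.4 and 10.41 kb in KO cells. The ratio of WTLPS to WT was 4.69 and that of KOLPS to KO 4.34, where the medians over genes with H3K4me3 were 0.87 (11690 genes) and 0.73 (11627 genes). Cd40 stood at or above 99.3% and 99.7% of those genes. For Tnfsf9 the covered lengths were 8.41, 22.79, 9.04 and 16.78 kb, and its ratios were 2.71 and 1.86. Cd80 had 52.79, 98.78, 27.56 and 53.75 kb, with ratios of 1.87 and 1.95, and Cd86 had 26.9, 48.85, 11.89 and 20.13 kb, with ratios of 1.82 and 1.69. These 4 genes had more covered sequence after LPS in either genotype and ranked at or above 92.8% of genes in both.

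The checkpoint ligands, whose windows largely overlap, had no such rise, and Cd83 and Icam1 had little or none. Around Pdcd1lg2 the covered length was 141.62 kb before and 136.06 kb after LPS in WT cells and 104.59 and 75.83 kb in KO cells, and around Cd274 it was 106.06, 103.97, 68.56 and 51.46 kb in the same order. Their ratios after LPS, 0.96 and 0.72 for Pdcd1lg2 and 0.98 and 0.75 for Cd274, lay near the medians over all genes. Cd83 had 26.0, 26.14, 13.34 and 14.48 kb, Icosl 39.66, 52.73, 37.05 and 34.13 kb, and Icam1 26.97, 23.48, 25.91 and 18.84 kb. Icam1, with p65 at its promoter after LPS in either genotype, thus had no more acetylated sequence nearby after LPS than before.

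**Figure D4:**
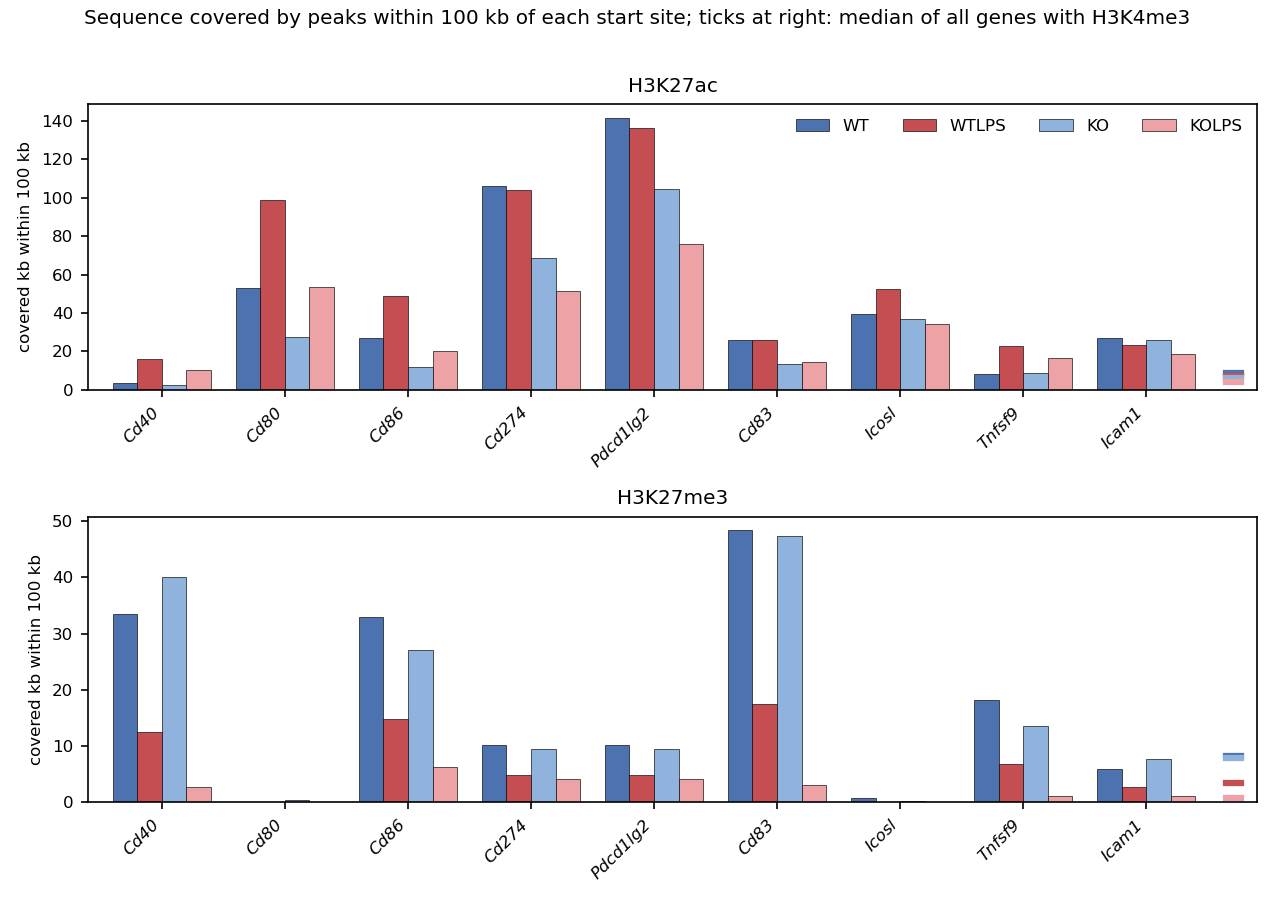
Length covered by H3K27ac peaks (upper panel) and H3K27me3 peaks (lower panel) within 100 kb of each start, in kb (vertical axes start at 0), for the 4 conditions; ticks at the right give the median over genes with H3K4me3 in the same colours. Cd40, Cd80, Cd86 and Tnfsf9 have taller H3K27ac bars with LPS in either genotype, and the H3K27me3 bars are shorter with LPS for Cd40, Cd86, Cd83 and Tnfsf9.

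KO lists covered less than WT lists for most of these genes. The ratio of KO to WT in H3K27ac length ran from 0.44 for Cd86 to 1.08 for Tnfsf9, beside a median of 0.76 over all genes with H3K4me3. After LPS it ran from 0.41 for Cd86 to 0.8 for Icam1, beside 0.62. The usual background in these lists was 1.17 and 1.2 fragments in WT and WTLPS and 0.748 and 0.801 in KO and KOLPS. The mapped reads of these libraries differed by far less than their backgrounds, and the part of either in the lower lengths was not tested.

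H3K27me3 surrounded Cd83 with 48.4 kb before and 17.54 kb after LPS in WT cells, and 47.4 and 3.11 kb in KO cells. Cd40 had 33.46, 12.56, 39.99 and 2.67 kb, Cd86 had 32.89, 14.79, 27.02 and 6.34 kb and Tnfsf9 had 18.25, 6.77, 13.55 and 1.12 kb. The window of Cd80 had none but for 0.47 kb in KO. The medians over genes with H3K4me3 were 8.3, 3.5, 7.91 and 0.71 kb, so the shorter lengths after LPS were general, and the KOLPS list had only 26960 peaks against 96475 in WT.

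STAT5 lay at the promoters of 5 of the 9 genes in WT, Cd40, Cd274, Pdcd1lg2, Icosl and Icam1, and at 4 in KO, all but Icam1. Over all protein-coding genes 3.96% had a STAT5 peak at the promoter in WT and 3.29% in KO. At Cd274 the summit 1025 bp before the start had 36 fragments in WT and 30 in KO, and the one at Icosl 32 and 32. For Pdcd1lg2 the counts were 35 and 36. The background of the KO list was higher, at 1.7 against 1.33 fragments, and the ratio of KO to WT over background was 0.65 (0.39 to 1.08) at Cd274, 0.78 (0.46 to 1.31) at Icosl and 0.8 (0.49 to 1.31) at Pdcd1lg2. At Cd40, with 26 fragments in WT and 17 in KO, it was 0.51 (0.26 to 0.98). The Icam1 summit, 39 bp before the start, had 16 fragments in WT and no KO peak, and with the 8 fragments that KO could hold uncalled its ratio would be 0.39 (0.14 to 0.97). Cd40 and Icam1 were therefore the promoters where STAT5 was lower in KO beyond counting error.

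All 9 genes had STAT5 within 100 kb in either genotype. The counts in WT and KO were 16 and 13 for Pdcd1lg2, 10 and 8 for Cd274, 8 and 8 for Cd80, 6 and 5 for Cd86, 5 and 4 for Cd83, 5 and 3 for Icosl, 3 and 3 for Tnfsf9, 2 and 1 for Icam1 and 1 and 1 for Cd40. Genes with H3K4me3 had a median of 1 in WT and 0 in KO. Of 45 WT sites 34 had a KO peak, or 75.6%, beside 64.8% of the whole list. At these 34 sites the KO fold was a median 0.79 times that of WT, beside 0.83 over 5303 peaks. The intervals of 9 lay below 1 and of none above. Such intervals were not counted over the whole list, so this may not be particular to these genes. Of the 38 KO sites, 34 had a WT peak, or 89.5%, and the rest were listed in KO alone. By fragments, the strongest STAT5 sites were 69.6 kb before Cd80, with 60 fragments in WT and 57 in KO, and 93.3 kb after Tnfsf9, with 58 and 66. The lowest ratio was 78.4 kb after Pdcd1lg2, with 30 and 12 fragments and a ratio of 0.31 (0.15 to 0.63). p65 was listed in WTLPS at 11 of the 45 WT sites, or 24.4%, beside 18% of the whole STAT5 list. By mapped reads 10 of the 34 intervals lay below 1.

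**Figure D5:**
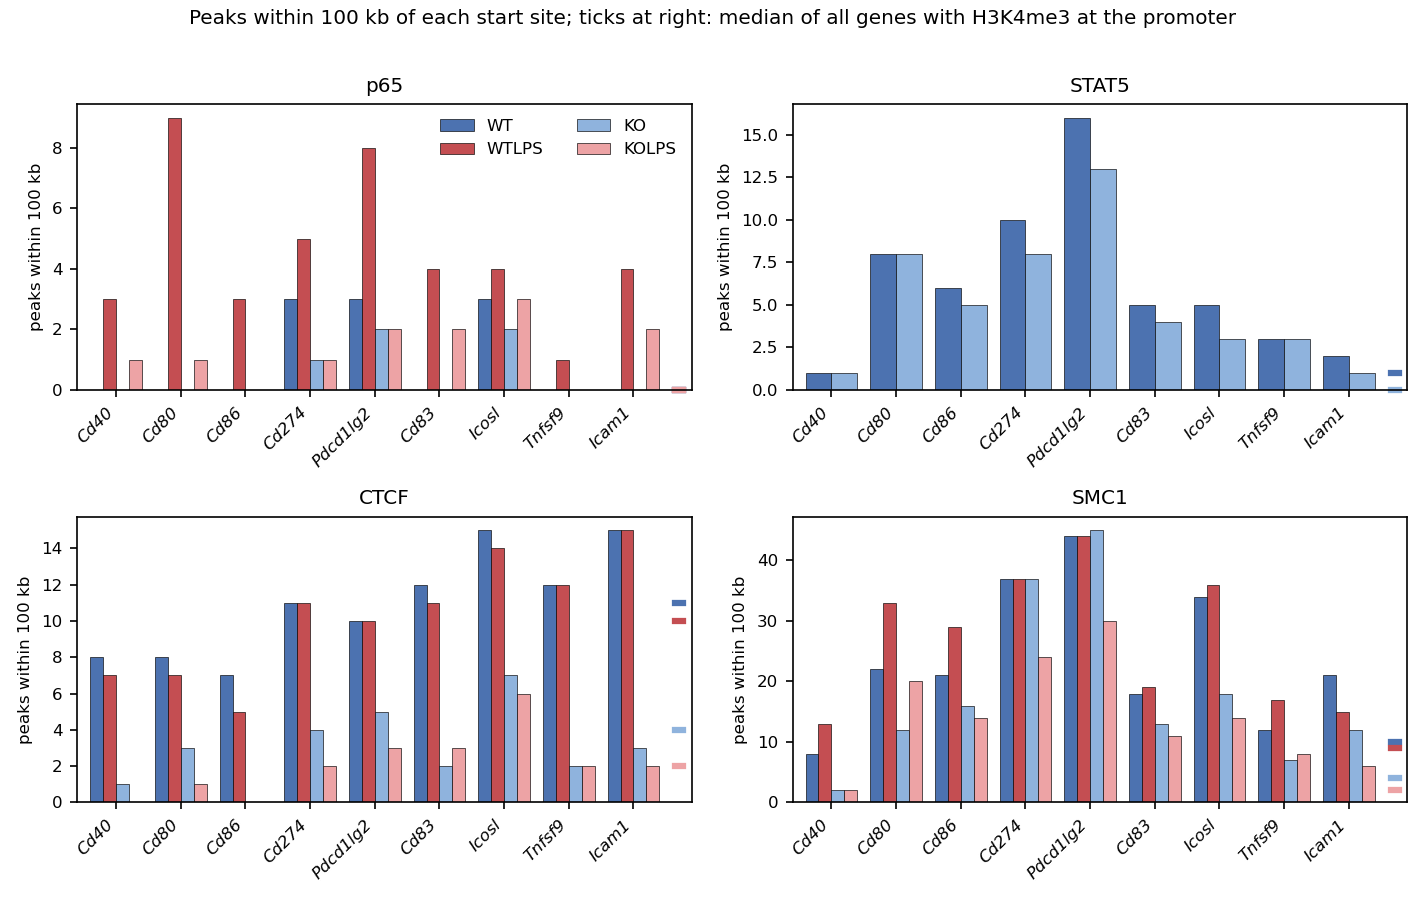
Number of peaks within 100 kb of each start (vertical axes start at 0) for p65, STAT5, CTCF and SMC1 in each condition, with ticks at the right for the median over genes with H3K4me3. WTLPS gives the tallest p65 bar for every gene, CTCF bars are shorter in KO and KOLPS for every gene, and the KO bar of SMC1 matches or exceeds the WT bar for Cd274 and Pdcd1lg2.

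CTCF, which sets the borders of chromatin domains by halting cohesin, bound a promoter of only 1 gene of the 9. Icosl had a CTCF peak in WT (chr10:78069600-78069922, 5.81-fold, 28 fragments) and in WTLPS (6.18-fold, 27 fragments) and none in KO or KOLPS. Among all protein-coding genes the share with promoter CTCF was 29.5% before and 27.2% after LPS in WT cells, and 19.1% and 10.1% in KO cells. The other 8 promoters had none in any list.

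The nearest WT peak to the other starts lay 3.3 kb after Cd274 (17.31-fold), 3.4 kb before Icam1 (8.21), 4.1 kb before Tnfsf9 (5.04), 4.7 kb after Cd83 (3.8), 9.2 kb before Cd40 (5.26), 9.9 kb after Cd86 (9.29), 22.5 kb after Pdcd1lg2 (7.81) and 27.4 kb after Cd80 (20.05). Of these and the Icosl peak, the KO list kept 1 as the nearest, the Cd274 peak, at 5.32-fold. In KOLPS that one was absent too and the nearest lay 11.8 kb before Cd274. For Cd86 the nearest KO peak was 136.7 kb away, and for Cd40 the nearest KOLPS peak was 256.9 kb away.

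Within the merged windows CTCF peaks numbered 91 before and 85 after LPS in WT cells, and 24 and 17 in KO cells. Icosl had the most in both genotypes without LPS, 15 and 7 (Icam1 also had 15 in WT), and Cd86 the fewest, 7 and 0. A CTCF core motif was found within 50 bp of 39 of the 91 WT summits, or 42.9%. In a sample of 12108 peaks drawn at even steps from the WT list, 30.3% held it, beside 1.78% of windows 1 kb away. Of the 91 WT sites 20 had a KO peak, or 22%, beside 23.7% of all WT peaks. The KO fold at those 20 was a median 0.41 times that of WT, beside 0.35 over 14371 peaks. All 20 had SMC1 in WT and 12 had it in KO. Of the 71 WT sites without a KO peak, 50 had SMC1 in WT and 13 in KO. These SMC1 shares were not counted over the whole CTCF list, so they may not be particular to these genes.

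SMC1 lay at 8 of 9 promoters in WT and at 9 of 9 in WTLPS, KO and KOLPS, the exception being Tnfsf9 in WT. Over all protein-coding genes 30.4%, 27.1%, 21.6% and 13.9% had SMC1 at the promoter in the same order. At Icam1 the SMC1 peak was at percentiles 44.7, 69.6, 83.3 and 92.4 of the 4 lists and at Tnfsf9 at 62.3, 49.5 and 76.8 of the last 3. Cd83 had 59.5, 28.5, 46.9 and 23.5, and Icosl 87.3, 81.1, 89.1 and 72.4. Besides Icam1 and Tnfsf9, KOLPS ranked below WT except at Pdcd1lg2, and KO above WT except at Cd274 and Cd83. The lists held 63638, 57354, 29965 and 17241 peaks and the summits differ at some genes, so a higher percentile need not mean more signal. Cohesin thus stayed listed at these promoters in KO, where over all genes its share was lower than in WT.

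SMC1 peaks in the merged windows numbered 187 before and 212 after LPS in WT cells, and 130 and 107 in KO cells. For Cd274 the counts were 37, 37, 37 and 24 and for Pdcd1lg2 44, 44, 45 and 30, so that the KO count was not below that of WT, although the covered length was, at 36.82 kb in WT and 22.3 in KO for Cd274. Cd40 had 8, 13, 2 and 2, Cd80 22, 33, 12 and 20, Cd86 21, 29, 16 and 14, Cd83 18, 19, 13 and 11, Icosl 34, 36, 18 and 14, Tnfsf9 12, 17, 7 and 8, and Icam1 21, 15, 12 and 6. Genes with H3K4me3 had medians of 10, 9, 4 and 2. Of 175 WT SMC1 sites near the 9 genes, 71 overlapped CTCF and 104 did not. A KO peak was listed at 26 of the former (36.6%) and at 64 of the latter (61.5%). This split was not made over the whole list, so it may not be particular to these genes. All WT sites together gave 51.4%, beside 34.5% of the whole WT list. Sites near the genes were merged where peaks of several lists overlap, while the whole list was counted by peak.

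Among the 20 other costimulatory and coinhibitory genes examined, Tnfsf4 (OX40L), Tnfsf15 and Nectin2 carried promoter p65 in WTLPS and none of the 20 did in KOLPS. Over all protein-coding genes the shares were 2.86% and 1.86%. With 20 genes, none in KOLPS is not told apart from that share. Tnfsf15 had it in WT as well. STAT5 was at 3 of the 20 in WT (Tnfsf14, Nectin2 and Cd48) and at 1 in KO (Tnfsf14), beside 3.96% and 3.29% of all genes. CTCF was at 8 in WT and 1 in KO, beside 29.5% and 19.1%. H3K27ac was at 16 before and 17 after LPS in WT cells and at 13 and 13 in KO cells. The shares over all genes were 44.1%, 41.3%, 44.5% and 40.8%.

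Over the 30 lists, the pattern of promoter calls of Cd83 was shared in full by 3 genes, Ifit3b, Psma4 and Slc44a1. The nearest to Cd40 was Zfp719, which differed in 1 list. For the other 7 genes between 5 genes (Icam1) and 234 genes (Cd86) had the identical pattern.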

How the data were processed

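Peak lists were used as deposited. Per the labels, the authors used BWA 0.7.12 (mm10), Picard 1.77 for duplicate reads and MACS2 2.1.2 for the peaks. Each list holds positions, fold enrichment over background (a ratio) and −log10 p and q values, deposited by the authors for narrow (6 antibodies) or broad peaks (H3K4me1 and H3K27me3, whose values are averages over the peak). CTCF and SMC1 lists end at a −log10 p of about 7, p65 lists, from which the authors removed problem regions, at 4.346 to 6.055. The study states 2 biological replicates per condition, peak calling in each replicate and, of its experiments in general, merging of replicates, and which of these a deposited list holds is not stated for it. The 4 input samples were not used here.

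Peaks were joined with GENCODE vM21 in Python 3.11.15 with numpy 2.4.6, pandas 2.3.3 and scipy 1.17.1. A peak counted with 1 bp in a window. Fragments under summits were solved from fold and −log10 p, within 0.01 of the deposited value, and this was tested on simulated data. Ratios carry exact (Clopper-Pearson) 95% intervals. The files hold no library totals. The usual background per list (the most frequent local background) stood for depth, and the mapped reads stated in the study's reporting summary were an alternative chosen after seeing the data. All 9 genes were named, with p65 sites at promoters and, per gene, at the highest fold, while other sites were named after their values were seen. The alternatives were narrower and wider windows, all annotated starts, a stricter −log10 p (10, or 4 for broad peaks), other overlaps and a common p65 threshold. The genes and marker lists were chosen with earlier results of these data known. The count over the B cell marker list is not reported here.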

Additional observations from a re-analysis of the deposited data

Results flagged for a closer look

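The difference between LPS and no LPS ran in opposite directions in WT and KO for 4 values, none of which was tested. Around Icosl the length covered by H3K27ac was 13.07 kb more in WTLPS than in WT and 2.92 kb less in KOLPS than in KO (39.66, 52.73, 37.05 and 34.13 kb), which sets the genotypes 15.99 kb apart. Against the medians over genes with H3K4me3 (ratios of 0.87 and 0.73), both Icosl ratios, 1.33 and 0.92, lay above. The SMC1 count around Cd86 was 8 more after LPS in WT and 2 less in KO, a gap of 10 peaks. Around Cd83 it was 1 more and 2 less, a gap of 3, and around Icosl 2 more and 4 less, a gap of 6. The SMC1 list of KOLPS held 17241 peaks against 29965 in KO, and its median ratio of covered length over all genes with H3K4me3 was 0.5, so fewer SMC1 peaks after LPS in KO were general. Its part in these 3 counts was not tested.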

How the results depend on the processing

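Of 86 alternative values for 22 counts, 67 stayed within 1.5 times the reported count and 19 did not. Scaling fragments by mapped reads instead of background, chosen after seeing the data, put the KOLPS to WTLPS ratio below 1 beyond counting error at 4 shared p65 sites instead of 0 and at 5 sites without a KOLPS peak instead of 3, and which scale is right was not tested. A window of 50 kb gave 6 p65 peaks in KOLPS, 52 CTCF peaks in WT and 11 in KO, 121 SMC1 peaks in WT and 83 in KO, 26 STAT5 peaks in WT and 22 in KO, and 4 WTLPS p65 sites with a KOLPS peak. A window of 200 kb gave 18 p65 peaks in KOLPS, 196 CTCF peaks in WT and 59 in KO, 303 SMC1 peaks in WT and 210 in KO, and 15 shared p65 sites. These follow from the size of the window. The stricter threshold left 82 SMC1 peaks in KO and 0 promoters with H3K27me3 in WT, and a promoter of 1 kb left 1 (Cd83). The p65 lists end at different −log10 p values, and holding all 4 to the highest of them, 6.055, an alternative chosen after seeing the data, moved no p65 count by over 1.5 times. p65 summits near these genes held 6 to 76 fragments in WTLPS, so a site without a KOLPS peak is seldom told apart from an equal one.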
